A study of Glycine max with 24 samples.

Results

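The low-P response was examined in roots of the low-P-sensitive soybean accession YH (Yunhefengwodou). The comparison set 3 root arrays of seedlings kept in low P (0.005 mmol/L P) against 3 root arrays of seedlings kept in normal P (0.5 mmol/L P), which is 6 of the 24 arrays of the series. The other 18 arrays hold YH leaves and the roots and leaves of the low-P-tolerant accession CD (Chundou), in the same P levels and with 3 arrays per group. All plants were grown in hydroponics in half-strength Hoagland solution for 10 days, and KCl took the place of the withheld potassium phosphate. Each accession is a single line, and whether a replicate was a single plant or a pool is not given in the sources used here. Transcripts were read on Affymetrix Soybean Gene 1.1 ST arrays, where short DNA probes for a transcript are combined into a probe set with a single intensity. All 75990 probe sets were compared as log2 intensities, and a log2 ratio, low P over normal P, of 1 is a doubling. A probe set was called where low P and normal P differed at least 2-fold with a limma adjusted p under 0.05.

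Plants that run short of phosphate switch on a well-known program. SPX proteins sense the phosphate status of the cell and hold back PHR transcription factors, and when phosphate is scarce the freed PHR factors turn on genes for uptake and recycling. These include the PHT1 transporters, which take up phosphate at the root surface, the PHO1 exporters, which load it into the xylem, purple acid phosphatases, which release it from organic compounds, and enzymes that replace membrane phospholipids by galactolipids. Roots of many species also release malate and citrate, through ALMT and MATE transporters, which frees phosphate bound to iron and aluminium.

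The labelled tissue was checked first. Of 16 root marker probe sets (isoflavone synthase, nitrate transporter and tonoplast intrinsic protein genes among them), 12 were brighter in YH roots than in YH leaves, and of 10 leaf markers (Rubisco small subunit and chlorophyll-binding protein genes among them) 0 were. The root markers brighter in leaves were both PRP3 probe sets, TIP5-1 and TIP1-10. The log2 of the summed root marker intensity was 11.85 to 11.95 in low-P roots and 11.79 to 11.92 in normal-P roots, against 8.32 to 9.07 in leaves. That of the leaf markers was 8.87 to 9.24 in low-P roots and 8.86 to 9.05 in normal-P roots, against 12.40 to 12.91 in leaves. PRP1, the brightest root marker at 11.09 in YH roots, weighed most in the root marker sum. The marker sums of the root groups overlapped, and no member of either list was called in low P. Less RNA per cell and fewer cells of a type cannot be told apart in whole roots.

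Replicate 1 stood apart in both P levels of YH roots. Its 2 arrays resembled each other (Pearson r of 0.985 over all probe sets) more than either resembled the other arrays of its own P level (r of 0.970 to 0.978), whereas replicates 2 and 3 had r of 0.989 in low P and 0.987 in normal P. In low P, 1362 probe sets of replicate 1 lay at least 2-fold from the mean of the other 2 arrays, against 189 and 488 for replicates 2 and 3. In normal P the counts were 955 for replicate 1, and 468 and 303 for replicates 2 and 3. Both replicate 1 arrays lay at least 2-fold below the rest of their group in 111 probe sets, above it in 82, and on opposite sides in 7. SCOF-1, a cold-inducible zinc finger factor of soybean, had log2 intensities of 3.57, 4.76 and 6.09 in low P and of 4.19, 6.11 and 5.01 in normal P. Its lowest value was replicate 1 in each group, and the groups overlapped. The phosphate factor gene PHR12 was highest in replicate 1 of each group, with 4.19, 3.68 and 2.55 in low P and 4.26, 3.16 and 3.14 in normal P. The replicate 1 arrays of CD roots deviated in a similar way, with correlations of 0.419 to 0.503 with the YH deviations over all probe sets. What set these arrays apart was not tested. The named calls that were lost without both of them are given with both values, except that PR1 probe set 12067589 was not followed in this way.

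**Figure D1:**
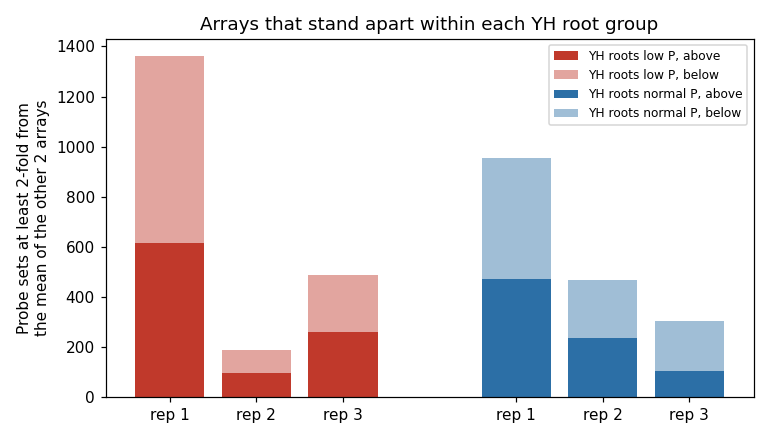
Number of probe sets on each YH root array that lay at least 2-fold above (dark) or below (pale) the mean of the other 2 arrays of its group, low P on the left and normal P on the right. Replicate 1 had the highest count in both groups, with 1362 in low P and 955 in normal P.

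Few single probe sets were called in YH roots in the reported fit. In low P, 1 of 75990 probe sets (0.00132%) was called against normal P, and it was lower. No probe set was called higher (0.00%). At an unadjusted p under 0.05, 549 (0.722%) were higher and 624 (0.821%) lower. Together these were fewer than that threshold gives when nothing changes, but the counts depended on the fit. With replicates paired by number in a fit of the 12 root arrays, 1854 were higher and 2071 lower. With arrays weighted, 3544 were higher and 3449 lower. The low counts of the reported fit thus do not measure an absence of change. In CD roots 319 probe sets (0.420%) were called with the same fit, 247 (0.325%) higher and 72 (0.0947%) lower. The fold change in YH roots reached 2 in 39 probe sets, 3 higher (0.00395%) and 36 lower (0.0474%), against 438 higher (0.576%) and 132 lower (0.174%) in CD roots. The 3 low-P and 3 normal-P arrays of YH roots did not overlap in 4918 probe sets (6.47%), 2573 higher (3.39%) and 2345 lower (3.09%). Of these, 2 higher (0.00263%) and 24 lower (0.0316%) had a fold change of at least 2. With no difference between the groups, 10% of probe sets would not overlap by chance, against the 6.47% seen.

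These small values came with narrow intervals. The 95% interval of the fold change lay within 2-fold in either direction for 72706 probe sets in YH roots (95.7%), and 71063 in CD roots (93.5%). The log2 ratios in YH roots had an SD of 0.169 over all probe sets, against 0.247 in CD roots and 0.285 in YH leaves, with the same median standard error of 0.202 from the shared variance. The central 95% of YH root fold changes ran from -0.35 to 0.32. Their median was 0.00.

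**Figure D2:**
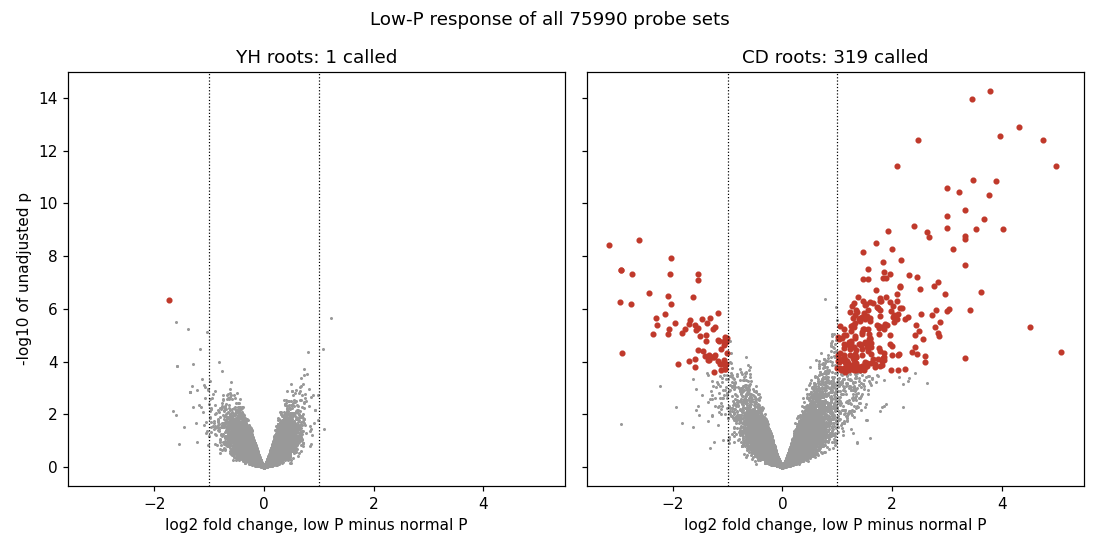
Log2 fold change in low P against normal P (x axis) and -log10 of the unadjusted p (y axis) of all 75990 probe sets, for YH roots (left) and CD roots (right). Red points were called and dotted lines mark a 2-fold change: 1 probe set was called in YH roots and 319 in CD roots.

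The called probe set, 12192195, has no gene symbol in the annotation. Its log2 intensity was 3.18, 3.74 and 3.58 in low P, against 5.32, 5.50 and 4.87 in normal P. All 3 low-P arrays lay below all 3 normal-P arrays, by more than the spread within either group. The transcript fell by 1.72 on the log2 scale (SE 0.238, 95% interval -2.22 to -1.23, adjusted p = 0.0363), a 3.30-fold lower level. In YH leaves it was the same in both P levels, at 5.27 in low P and 5.28 in normal P. In CD roots its log2 ratio was -0.92 (adjusted p = 0.117), and the difference between the accessions was not called (-0.80, adjusted p = 1.0). With replicates paired by their number the adjusted p was 0.0596, and without both replicate 1 arrays it was 0.386. The call was also lost without any single YH root array (adjusted p of 0.0846 to 0.252) other than normal P replicate 3, without which the adjusted p was 0.0378. Over 18 alternative settings 12192195 was called in 7 and not in 11, with limma adjusted p from 0.000611 to 0.9999.

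The next probe sets by p missed the threshold in the reported fit. Significance analysis of microarrays (SAM), the study's test, over the 6 YH root arrays called 11835787 and LOC100527435 lower, along with 12192195. LOC100776457 (probe set 11772671) had 3.04, 2.03 and 1.94 in low P, against 3.97, 4.11 and 3.74 in normal P. The groups did not overlap, and low P replicate 1 was the closest to normal P. Its log2 ratio was -1.60 (SE 0.252, 95% interval -2.13 to -1.08, adjusted p = 0.0810), and without both replicate 1 arrays it was -1.94 and called (adjusted p = 0.0379). This gene also fell in CD roots, by 1.54 on the log2 scale (adjusted p = 0.00272), and in YH leaves its log2 ratio was 0.03. It was called lower without low P replicate 1 alone as well (adjusted p = 0.00413).

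Probe set 11835787, which carries no symbol, had 1.41, 1.92 and 2.06 in low P, against 3.18, 3.38 and 2.99 in normal P. The groups did not overlap, and the low-P values lay near the lower quartile of these arrays (1.56 to 1.58), where signals are dim. Its log2 ratio was -1.38 (SE 0.228, adjusted p = 0.112). LOC100799020 had 3.72, 3.31 and 3.15 in low P, against 4.80, 4.22 and 4.27 in normal P. Again every low-P array was below every normal-P array, with a log2 ratio of -1.03 (SE 0.174, adjusted p = 0.117). It was -0.31 in CD roots. LOC100527435 had 4.09, 4.13 and 3.97 in low P, against 5.31, 4.97 and 5.43 in normal P. Its groups lay well apart, with a log2 ratio of -1.17 (SE 0.220, adjusted p = 0.362), and in CD roots the gene fell by 1.63 on the log2 scale (adjusted p = 0.000415).

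Probe set 12112875 had the largest positive log2 ratio and the smallest p among those higher in low P. It had 5.08, 5.36 and 5.52 in low P, against 4.23, 4.25 and 3.81 in normal P. The groups did not overlap. Its log2 ratio was 1.23 (SE 0.188, 95% interval 0.84 to 1.62, adjusted p = 0.0810), and without low P replicate 1 it was called higher (adjusted p = 0.0423). In CD roots it was -0.42, and the YH minus CD difference of 1.65 was called (SE 0.265, adjusted p = 0.00616). LOC100781363 had 4.35, 3.50 and 3.40 in low P, against 2.74, 2.81 and 2.48 in normal P. Every low-P array was above every normal-P array, with a log2 ratio of 1.07 (SE 0.202, adjusted p = 0.362), and replicate 1 was the farthest of the low-P arrays.

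**Figure D3:**
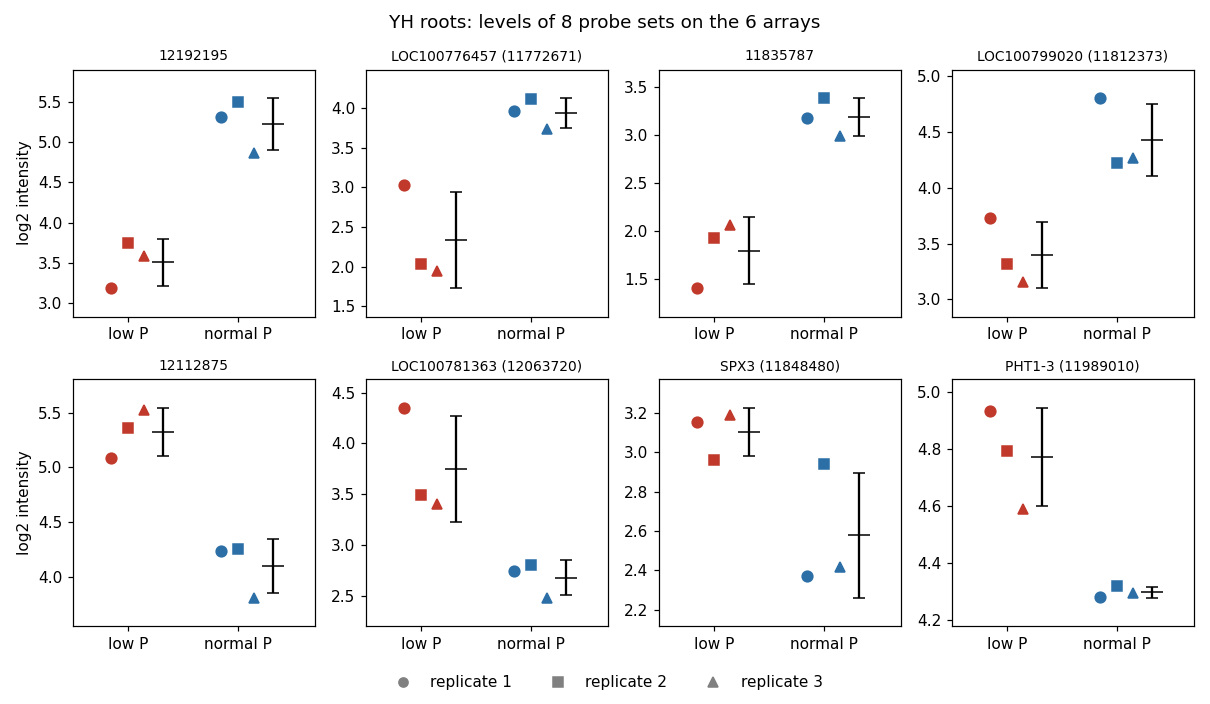
Log2 intensity (y axis, a separate scale per panel) of 8 probe sets on the 3 low-P arrays (red, left) and the 3 normal-P arrays (blue, right) of YH roots. Symbols give the replicate number, and the black bars the mean and SD (n = 3): the groups do not overlap in any of the 8, and only 12192195 was called.

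Other genes with larger fold changes varied more between arrays. GER11, a germin-like protein gene, had 6.37, 4.34 and 5.21 in low P, against 7.0, 6.55 and 6.33 in normal P. The groups overlapped by a small margin through low P replicate 1, and the log2 ratio was -1.32 (SE 0.335, adjusted p = 1.0). It was called lower only when low P replicate 1 was left out or arrays were weighted. DES1.2 had 5.14, 4.29 and 4.25 in low P, against 3.85, 3.35 and 3.70 in normal P. Its groups did not overlap, with a log2 ratio of 0.93 (SE 0.306, adjusted p = 1.0), against -0.28 in CD roots. Probe set 12202130 had 0.79, 1.20 and 1.68 in low P, against 1.87, 3.22 and 3.33 in normal P, and probe set 12202131 held the same 24 values. The groups did not overlap and low-P values were near the dim end of the arrays, with a log2 ratio of -1.59 (adjusted p = 0.968). In all, 847 probe sets (1.11%) shared their values on all 24 arrays with another probe set, so counts of probe sets are not counts of genes.

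Among single-symbol probe sets whose groups did not overlap at an unadjusted p under 0.05, the 10 with the highest log2 ratios lay between 0.69 and 1.07 and the 10 with the lowest between -1.60 and -0.88. Among those higher in low P, LOC100809697 had a log2 ratio of 0.74 (SE 0.163), LOC100527045 of 0.74 (SE 0.171), LOC100814175 of 0.85 (SE 0.244) and LOC100782679 of 0.83 (SE 0.262). Their 95% intervals all reached above 1, so a doubling was within what these arrays allow. LOC100808276 had 3.54, 1.56 and 2.45 in low P, against 4.06, 4.01 and 3.82 in normal P. Its low-P arrays were spread over a wider range than the log2 ratio of -1.45 (SE 0.617), although none reached the normal-P arrays.

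A pair of probe sets for PR1 genes, markers of defence against pathogens, showed how a single array can carry a fold change. Probe set 12067593 (5 symbols, 4 of them PR1 genes) had 2.88, 2.70 and 5.26 in low P, against 8.00, 3.26 and 4.21 in normal P. The groups overlapped, and normal P replicate 1 was far above every other array. The log2 ratio was -1.54 with all arrays and 0.25 without both replicate 1 arrays. Probe set 12067589, with the same symbols, had 1.52, 1.19 and 1.51 in low P, against 4.75, 1.55 and 1.56 in normal P. Here too normal P replicate 1 stood alone, and the log2 ratio was -1.21 with all arrays and -0.20 without both replicate 1 arrays. Both were called higher in CD roots (5.08 and 4.52). The YH minus CD difference was called for 12067589 (-5.74, adjusted p = 0.0179) and not for 12067593 (-6.62, adjusted p = 0.0627). Whether the call for 12067589 held without both replicate 1 arrays is not given here.

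The phosphate starvation genes were described as lists matched by symbol. None of the 6 SPX, 14 PHT1, 8 PHO1, 29 PHR and 4 purple acid phosphatase probe sets was called in YH roots (background 0.00132%). At an unadjusted p under 0.05, where the background was 0.722% higher and 0.821% lower, 1 SPX and 1 PHT1 probe set were higher, and 0 were lower. The median log2 ratio was 0.05 for SPX, 0.05 for PHT1, -0.01 for PHO1, 0.02 for PHR and -0.12 for the phosphatases, against 0.00 over all probe sets. The 95% interval lay within 2-fold for 6 of 6 SPX, 13 of 14 PHT1, 8 of 8 PHO1, 26 of 29 PHR and 3 of 4 phosphatase probe sets. A 2-fold difference in either direction was thus outside the interval of all but 5 members. This holds for the array signal, since dim probe sets limit the fold change that can be read. Below the lower quartile lay 1 SPX, 2 PHT1, 1 PHO1 and 1 PHR probe set.

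SPX3, one of the phosphate sensors, had 3.16, 2.96 and 3.19 in low P, against 2.37, 2.94 and 2.42 in normal P. The low-P arrays were all higher, although normal P replicate 2 came within 0.02 of low P replicate 2. Its log2 ratio was 0.52 (SE 0.181, 95% interval 0.15 to 0.90, unadjusted p = 0.00899, adjusted p = 1.0). In CD roots the gene rose by 1.57 (adjusted p = 6.65e-05), and the YH minus CD difference of -1.04 (SE 0.257) was not called (adjusted p = 0.191). SPX8 had a log2 ratio of -0.07 in YH roots, where the values of 4.81, 4.27 and 4.08 in low P overlapped those of 4.58, 4.24 and 4.56 in normal P, and was called higher in CD roots (1.1). The remaining SPX genes had log2 ratios in YH roots of 0.25 (SPX4), 0.17 (SPX9), -0.09 (SPX6) and -0.22 (SPX2), and all of their groups overlapped.

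PHT1-3, a root phosphate transporter gene, had 4.93, 4.79 and 4.59 in low P, against 4.28, 4.32 and 4.29 in normal P. The normal-P arrays were nearly equal and all 3 low-P arrays were above them. The log2 ratio was 0.47 (SE 0.189, 95% interval 0.08 to 0.87, unadjusted p = 0.0208, adjusted p = 1.0), and in CD roots it was 0.86 (adjusted p = 0.0414, under 2-fold). PHT1-1, the other transporter with a level well above the array median, had 6.59, 6.30 and 6.14 in low P, against 6.37, 5.88 and 5.80 in normal P. Its groups overlapped, with a log2 ratio of 0.33 (95% interval -0.08 to 0.74). PHT1-2 had 3.74, 2.47 and 2.48 in low P, against 2.09, 2.67 and 2.63 in normal P. Its log2 ratio of 0.43 rested on the replicate 1 arrays and was -0.17 without both of them.

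The PHO1 exporters ranged from -0.19 to 0.31 in log2 ratio. The highest of them, PHO1-H14, had 4.19, 3.91 and 4.14 in low P, against 4.13, 3.53 and 3.65 in normal P, with overlapping groups and an interval of -0.16 to 0.79. The PHR factor genes ranged from -0.29 to 0.24, and 0 of 29 had an unadjusted p under 0.05. PHR29 had the smallest p, with a log2 ratio of 0.24 (unadjusted p = 0.0940), and PHR31 had 0.15 for a probe set whose groups did not overlap and -0.20 for its other, overlapping one. Among the phosphatases PAP02 had a log2 ratio of -0.33 (95% interval -1.06 to 0.41), PAP14 of -0.19 and PAP4 of 0.10. Of 14 galactolipid synthesis and diacylglycerol kinase probe sets 11 had positive fold changes, and 0 reached an unadjusted p under 0.05 (highest 0.25). The 9 probe sets of PEP carboxylase, which makes the carbon skeleton of malate, and its kinases ranged from -0.59 to 0.27, with 8 negative and 0 at an unadjusted p under 0.05.

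**Figure D4:**
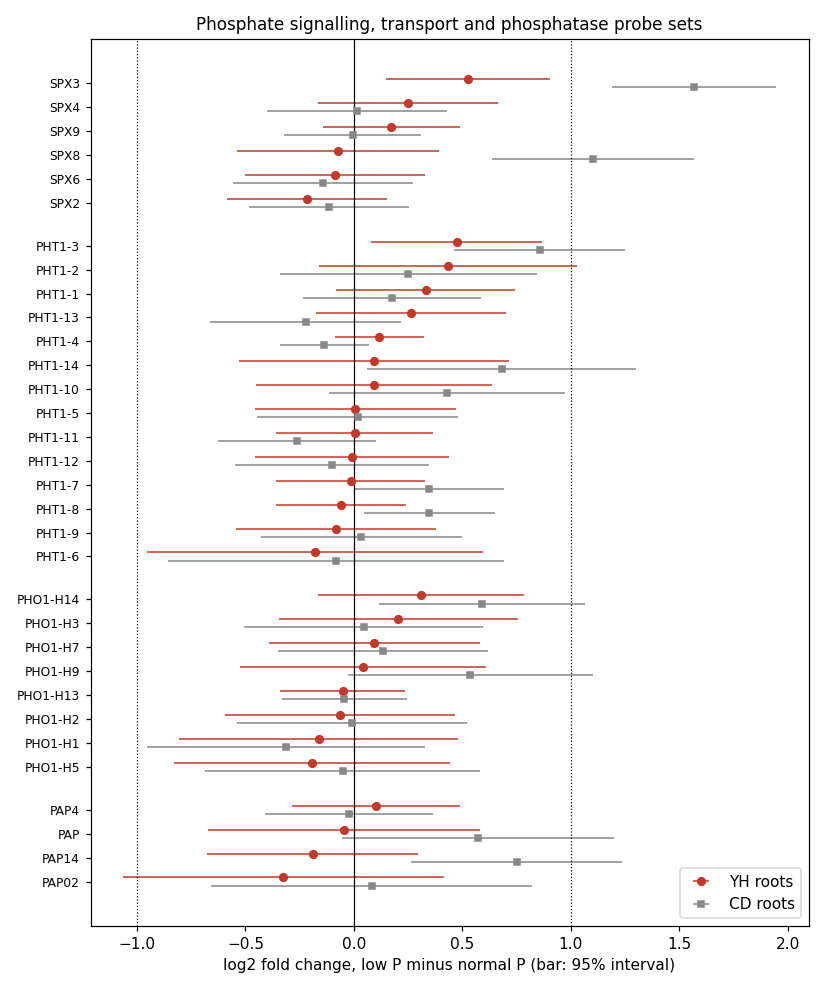
Log2 fold change in low P against normal P (x axis) with its 95% interval for the SPX, PHT1, PHO1 and purple acid phosphatase probe sets (from top to bottom), in YH roots (red circles) and CD roots (grey squares). In YH roots the intervals of SPX3 (0.15 to 0.90) and PHT1-3 (0.08 to 0.87) lay above 0 and below a 2-fold change (dotted lines).

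None of the 20 ALMT malate transporter and 25 iron and metal probe sets was called in YH roots (background 0.00132%). Of 20 ALMT malate transporter probe sets 0 were higher and 2 lower at an unadjusted p under 0.05 (background 0.722% and 0.821%), with 14 negative and a list median of -0.08. Over all 75990 probe sets 37138 were negative, with a median of 0.00. ALMT34 had 6.46, 5.45 and 5.94 in low P, against 7.06, 7.14 and 6.39 in normal P. Its groups overlapped only through low P replicate 1 and normal P replicate 3, and its log2 ratio was -0.92 (SE 0.353, unadjusted p = 0.0173, adjusted p = 1.0). ALMT16 had 7.36, 6.21 and 6.63 in low P, against 7.79, 7.94 and 7.14 in normal P, overlapping at the same 2 arrays, with a log2 ratio of -0.89 (SE 0.389, unadjusted p = 0.0327, adjusted p = 1.0). Both fell in CD roots, ALMT34 by 2.30 and ALMT16 by 2.76 on the log2 scale (adjusted p of 0.00151 and 0.000652). These 2 genes may share probes, as members of a gene family do, and were not told apart further.

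FRD3b, named after the citrate transporter FRD3 that loads iron for the xylem in Arabidopsis, had 6.48, 6.12 and 5.87 in low P, against 6.92, 6.63 and 6.60 in normal P. All low-P arrays were below all normal-P arrays, and the log2 ratio was -0.56 (SE 0.217, unadjusted p = 0.0183, adjusted p = 1.0). It fell in CD roots by 1.38 on the log2 scale (adjusted p = 0.00200). Of the 25 iron and metal probe sets 20 had negative fold changes in YH roots, and FRD3b alone reached an unadjusted p under 0.05 (background 0.821% lower). The list median was -0.11.

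None of the bHLH, WRKY, MYB, bZIP, NAC, LBD and heat shock factor probe sets was called in YH roots (background 0.00132%). Of 6 bHLH probe sets 5 were negative, with a list median of -0.27 against 0.00 over all probe sets, and 2 were lower at an unadjusted p under 0.05 (background 0.821%). BHLH56, one of them, had 7.66, 7.44 and 7.45 in low P, against 8.09, 8.06 and 7.92 in normal P. Its groups did not overlap, with a log2 ratio of -0.51 (SE 0.230, unadjusted p = 0.0393), and it fell in CD roots by 1.04 (adjusted p = 0.0410). BHLH59, the other, had a log2 ratio of -0.34 in YH roots (unadjusted p = 0.0185) and of -0.63 in CD roots (adjusted p = 0.0310, under 2-fold). WRKY30 had 2.12, 2.05 and 2.36 in low P, against 2.76, 2.69 and 3.06 in normal P, and was lower in each pair of same-numbered arrays (-0.66, SE 0.266, unadjusted p = 0.0220). Of 55 WRKY probe sets 40 had negative fold changes, beside 37138 of 75990 over all probe sets. WRKY30 alone reached an unadjusted p under 0.05 (background 0.821% lower). MYB12A (-0.40) and BZIP27 (-0.40) were lower and BZIP58 (0.50) was higher at an unadjusted p under 0.05, among 61 MYB and 60 bZIP probe sets. The adjusted p was 1.0 for each of these factors in YH roots.

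No other list had more than 1 member at an unadjusted p under 0.05. SWEET7, a sugar transporter gene, had 8.00, 7.12 and 7.46 in low P, against 8.09, 8.29 and 7.96 in normal P, with a log2 ratio of -0.59 (SE 0.261, unadjusted p = 0.0362). Its groups overlapped through low P replicate 1. Counts were 0 at that p, where the background was 0.722% higher and 0.821% lower, for 40 flavonoid, 12 phenylpropanoid, 20 gibberellin oxidase, 15 jasmonate, 11 ethylene, 39 auxin, 35 NAC, 29 LBD, 35 heat shock factor, 13 heat shock protein, 32 glutathione S-transferase, 6 peroxidase, 13 expansin, 9 wound and storage protein, 35 aquaporin, 14 nitrate and ammonium transporter and 24 nodulation probe sets. The jasmonate list had the lowest median of these, -0.21, with 13 of 15 members negative, and its median was -0.11 without both replicate 1 arrays. In CD roots 5 of the 40 flavonoid probe sets were called higher (background 0.325%).

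YH roots were next set against CD roots, which share no array with them. The 72 probe sets called lower in CD roots were mostly of the same sign in YH roots, with 62 negative (37138 of 75990 over all probe sets), a median log2 ratio of -0.33 against -1.49 in CD roots, and 20 lower at an unadjusted p under 0.05 (background 0.821%). In 6 of the 72 the fold change in YH roots was at least 2 in the same direction, and in 47 the 95% interval stayed within 2-fold. Without both replicate 1 arrays 60 were negative, with a median of -0.28. LOC100776457, LOC100527435, ALMT34, ALMT16, FRD3b and BHLH56 belong to these. LOC100787564, another of them, had 4.44, 2.90 and 3.48 in low P, against 4.55, 5.40 and 4.50 in normal P of YH roots. Its groups did not overlap, although replicate 1 differed little between P levels, and its log2 ratio was -1.21 in YH roots (SE 0.321) and -2.14 in CD roots.

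The 247 probe sets called higher in CD roots were not mostly of the same sign. In YH roots 172 of them had negative and 75 positive fold changes, with a median of -0.15, against 1.61 in CD roots. At an unadjusted p under 0.05, 3 were higher (background 0.722%), among them SPX3, and 11 were lower (background 0.821%). For 185 of the 247 the 95% interval in YH roots lay within 2-fold. Their median level in low P was 2.85 in YH roots and 4.76 in CD roots, while in normal P it was 2.91 in YH roots and 2.82 in CD roots. Without both replicate 1 arrays 153 were negative, with a median of -0.11. Over all probe sets the fold changes of the accessions had a correlation of -0.03, over points that share arrays and so are not independent.

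**Figure D5:**
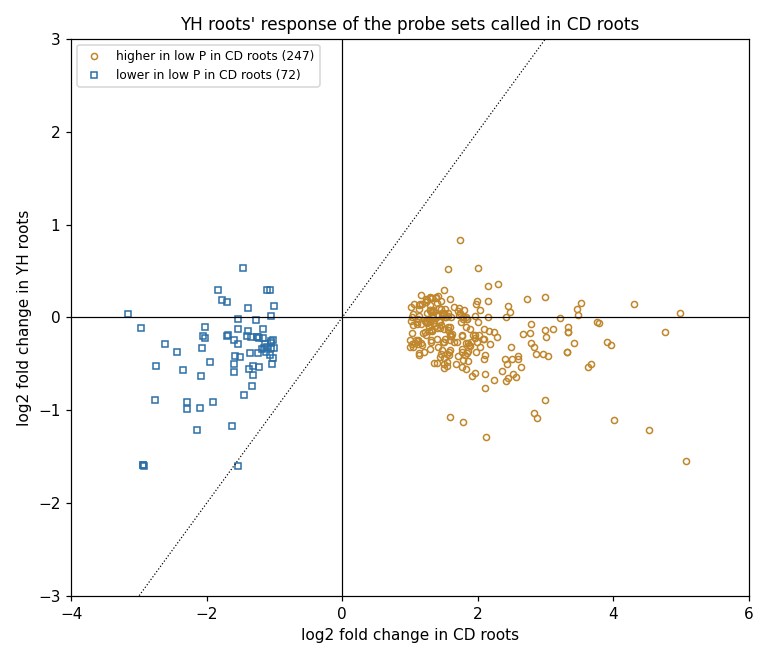
Log2 fold change in YH roots (y axis) against that in CD roots (x axis) for the 247 probe sets called higher (circles) and the 72 called lower (squares) in low P in CD roots. The dotted line marks equal fold changes: 62 of the 72 lie below 0 in YH roots, and 172 of the 247 do.

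The difference of the responses, YH minus CD, was tested directly. It was called for 120 probe sets (0.158%), 111 with a lower (0.146%) and 9 with a higher (0.0118%) response in YH. Of the 111, 106 were called in CD roots and 0 in YH roots. At an unadjusted p under 0.05, 15 were lower in YH roots (background 0.821%). The difference that selected them contains these same YH and CD values. A lean to lower values in YH and to large changes in CD is thus partly built in. In none of the 111 was the YH fold change the larger of the 2 in size. LOC100818176, with the smallest p, had 1.11, 0.93 and 1.23 in low P, against 1.46, 0.92 and 1.08 in normal P of YH roots. These values overlapped at the dim end of the arrays, with a log2 ratio of -0.06 (95% interval -0.45 to 0.32), against 3.79 in CD roots and a difference of -3.85 (SE 0.261, adjusted p = 2.15e-07). Of the 9 with a higher response in YH, 7 were called lower in CD roots, which is partly built in as well.

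Some transcripts had opposite signs in the accessions. LOC100526962 had 4.32, 4.19 and 5.09 in low P, against 5.72, 5.70 and 5.56 in normal P of YH roots. The groups did not overlap, with a log2 ratio of -1.13 (SE 0.270, 95% interval -1.69 to -0.56, unadjusted p = 0.000469, adjusted p = 1.0), while in CD roots the gene rose by 1.79. The difference of -2.91 was called (SE 0.383, adjusted p = 0.000763). LOC100780361 had 4.69, 4.56 and 4.99 in low P, against 5.99, 5.73 and 5.75 in normal P of YH roots. It had the same pattern, with -1.08 in YH roots (unadjusted p = 0.000936), 1.59 in CD roots and a difference of -2.67 (adjusted p = 0.00281). In the other direction, LOC100782629 had 3.76, 3.62 and 4.01 in low P, against 3.14, 3.06 and 2.76 in normal P of YH roots. Its groups did not overlap, with a log2 ratio of 0.81 (SE 0.156, adjusted p = 0.416), -0.62 in CD roots and a called difference of 1.43 (adjusted p = 0.00456).

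The study picked 10 root probe sets that were lower in CD than in YH in normal P and higher in CD in low P. Such a pattern can arise without opposite low-P responses. The picks came from these same arrays, so their directions are no independent evidence. In YH roots their log2 ratios ran from -1.11 to 0.15, and none was called (background 0.00132%). At an unadjusted p under 0.05, 3 were lower (background 0.821%). Probe set 12212657 had 3.35, 4.02 and 3.84 in low P, against 5.51, 4.78 and 4.25 in normal P. The groups did not overlap, but the log2 ratio of -1.11 was -0.58 without both replicate 1 arrays. Probe set 11829195 had 1.68, 1.35 and 1.75 in low P, against 2.41, 3.50 and 2.13 in normal P, with groups that did not overlap and a log2 ratio of -1.09 (unadjusted p = 0.0257). LOC100816141, annotated in the study's table as a stem-specific protein TSJT1-like gene, had 6.46, 6.06 and 6.37 in low P, against 7.38, 7.26 and 6.20 in normal P, and overlapped through normal P replicate 3 (-0.65, unadjusted p = 0.0401). The difference to CD was called for 9 of the 10, with LOC100779524 at an adjusted p of 0.0543 (0.00910 without low P replicate 3). The call for NAC11;NAC12 was lost without low P replicate 2, low P replicate 3 or normal P replicate 1 (adjusted p up to 0.0846). MMP2, a matrix metalloproteinase gene with 2 probe sets, had log2 ratios of -0.32 and -0.27 in YH roots (95% intervals -0.96 to 0.31 and -0.71 to 0.17), and its brighter probe set differed from CD by -2.36 (adjusted p = 0.0208). That call was lost without both replicate 1 arrays (adjusted p = 0.0717) and without any 1 of low P replicate 2, low P replicate 3, normal P replicate 1 or normal P replicate 2 (adjusted p up to 0.0797).

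Roots and leaves of YH were compared last. The difference of their responses was called for 6 probe sets (0.00790%), 5 of them with a higher (0.00658%) and 1 with a lower (0.00132%) response in roots. In YH leaves 81 probe sets (0.107%) were called. BHLH300, a factor linked to iron deficiency in soybean, had 7.74, 7.81 and 7.95 in low P, against 8.23, 8.08 and 7.75 in normal P of YH roots. Its root groups overlapped, with a log2 ratio of -0.19 (95% interval -0.68 to 0.30), while in YH leaves it fell by 4.71 on the log2 scale, and the difference was 4.52 (adjusted p = 8.40e-07). BHLH320, of the same family, had a difference of 3.38 (adjusted p = 0.0294, 0.0799 with paired replicates and 0.188 without both replicate 1 arrays), with a log2 ratio of -0.14 in YH roots and -3.53 in YH leaves. The BHLH320 call held only without normal P replicate 2 (adjusted p = 0.0380), among the 6 YH root arrays left out in turn. A further BHLH320 probe set had a log2 ratio of 0.02 in YH roots. LOC100500575 had -0.20 in YH roots and 2.19 in YH leaves, a difference of -2.40 (adjusted p = 0.0130). This call was lost without both replicate 1 arrays (adjusted p = 0.0807), and without low P replicate 2 or normal P replicate 1 alone (adjusted p up to 0.0784). In all 3 the log2 ratio was closer to 0 in YH roots than in YH leaves.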

How the data were processed

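The deposited values are linear intensities of 24 arrays, normalized between arrays by the authors with RMA according to their methods and MAS5 according to the submitters' processing notes (version not given), so the summarization step is not settled. RNA was extracted with a plant RNA kit per the methods and with Trizol per the labels. All 75990 probe sets had values, 0 columns were unmapped, and no probe set was filtered out before taking log2. A single model of 8 group means over all 24 arrays was run in limma 3.58.1 (R 4.3.3). It had 16 residual degrees of freedom, with 4.22 more from the variance prior. Benjamini-Hochberg adjustment covered all probe sets of a comparison. The number of arrays limits the precision: 3 against 3 allow an exact two-sided p no lower than 0.1. The limma p values rest on a spread pooled over the replicates of all 8 groups, and not on the YH root arrays alone. Gene symbols came from the platform annotation, with 32405 probe sets having 1 symbol, 1586 several and 41999 none. 30501 of the single symbols are LOC numbers, for which no role is given. Promoters and other sequences were not analysed here.

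The members and lists were chosen with earlier results of these data known. Named were called probe sets, the 10 largest single-symbol fold changes in each direction whose groups did not overlap at an unadjusted p under 0.05, the 4 smallest p in the phosphate lists and those at that p in other lists, the smallest p in the differences, and the study's probe sets. The 8 smallest p in YH roots, GER11, PR1, SPX6, SPX8, 12202130 and the replicate 1 genes were named after their values were seen. Deviations of same-numbered YH root arrays from their group means correlated by 0.552, 0.176 and 0.239, all above 0.1, so the numbers were taken as pairs in an alternative fit with 12 blocks. Low P replicate 3 correlated more with normal P replicate 2 (0.422). SAM was run with 20 label assignments. The pipeline was run on simulated data with independent noise on each array, so deviations shared by same-numbered arrays were not tested there.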

Additional observations from a re-analysis of the deposited data

Results flagged for a closer look

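The results given here cover named probe sets and not every called difference. In each the low-P response of YH roots differed by its own limma test from that of CD roots or of YH leaves. The first difference was called for 120 probe sets and the second for 6. The called difference of PR1 probe set 12067589 to CD roots (-5.74, adjusted p = 0.0179) is not in the lists below. All values are differences of log2 fold changes, and explanations were not tested.

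Responses were lower in YH roots than in CD roots for 12212657 (-5.12), LOC100775275 (-4.94), LOC100792215 (-4.27), LOC100787534 (-4.17), LOC100807221 (-4.16), 11829195 (-3.96) and LOC100818176 (-3.85). They were also lower for LOC100791557 (-3.45), NAC11;NAC12 (-3.44), LOC100802020 (-3.38), LOC100500291 (-3.13), LOC100816141 (-3.09), LOC100526962 (-2.91) and LOC100780361 (-2.67). The smallest of these differences were those of LOC100777191 (-2.42), MMP2 probe set 11776273 (-2.36), LOC100500393 (-2.33), LOC100815477 (-2.31) and LOC100799184 (-2.18). In YH roots themselves, 4 of these 19 had fold changes of 2 or more, 12212657, 11829195, LOC100526962 and LOC100780361, all lower in low P (background 0.0474%). None of the 4 was called in YH roots. Without both replicate 1 arrays their log2 ratios were -0.58, -1.26, -0.99 and -0.96 in that order. The differences that selected them contain these YH values, so a lean to lower values is partly built in.

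Responses were higher in YH roots than in CD roots for LOC100803722 (3.19), probe sets 11920119 and 11908712 of LOC100809740 (2.33 and 1.85), LOC100775553 (2.0), 12112875 (1.65), LOC100811455 (1.51), LOC100782629 (1.43) and LOC100790114 (1.41, adjusted p = 0.0201, 0.0891 with paired replicates and 0.0514 without both replicate 1 arrays). The call for LOC100811455 was lost without both replicate 1 arrays (adjusted p of 0.101, against 0.0140 with them) and without low P replicate 2 (0.0573). That for LOC100790114 was also lost without low P replicate 1, low P replicate 2 or normal P replicate 3 (up to 0.0712), and that for the lower LOC100809740 value without normal P replicate 2 or 3 (up to 0.0823). LOC100803722 had 7.18, 6.97 and 6.90 in low P, against 7.37, 7.45 and 6.13 in normal P of YH roots. Its log2 ratio was 0.03 beside -3.16 in CD roots. LOC100775553 had 7.11, 7.18 and 7.04 in low P, against 6.75, 7.05 and 5.94 in normal P. Its log2 ratio was 0.53 in YH roots (unadjusted p = 0.0293) beside -1.47 in CD roots.

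The roots minus leaves difference in YH was 4.52 for BHLH300, 3.38 for BHLH320 and -2.40 for LOC100500575. The calls for BHLH320 and LOC100500575 were lost without both replicate 1 arrays, as was that for MMP2 against CD, with adjusted p of 0.188, 0.0807 and 0.0717.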

How the results depend on the processing

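The count of probe sets called lower in YH roots was 1 in the reported fit. Fitting the 6 arrays alone gave 0, as did the fit of the 12 root arrays, the replicate block (alone or over the 12 root arrays) and an adjusted p under 0.01. It was 2 with a trended robust variance prior and 3 with SAM (12192195, 11835787 and LOC100527435). It was 17 with array weights, and 0 to 4 when each YH root array was left out in turn. Without both replicate 1 arrays it was 1, which was LOC100776457 and not 12192195. Without low P replicate 1 it was 4, with normal P replicate 3 left out 1, and without any other single array 0. The count called higher was 0, and was 7 with array weights and 0 to 1 with each array left out, the 1 being 12112875 without low P replicate 1. On the 6 YH root arrays the weights ran from 0.476 for low P replicate 1 to 4.23 for low P replicate 2, and p values take them as known. The 120 called differences to CD became 54 in a fit of the 12 root arrays, which is also the separate fit, 227 in that fit with the replicate block (170 with the block over 24 arrays), 578 with array weights, 60 at an adjusted p under 0.01, 70 without both replicate 1 arrays and 75 to 110 with each YH root array left out (75 without low P replicate 2, 80 without normal P replicate 1). The 6 called differences to leaves became 1 in a separate fit of the YH arrays, 1371 with array weights, 3 at an adjusted p under 0.01, 3 without both replicate 1 arrays and 3 to 6 with each YH root array left out (3 without low P replicate 2 and 3 without normal P replicate 1). The replicate block ended the calls of 12192195, LOC100790114 and BHLH320, as given with those genes. It gave a call to the differences to CD of LOC100809697 (1.05, adjusted p = 0.0305, against 0.0946) and LOC100820569 (-1.47, adjusted p = 0.0319, against 0.282), and changed no other call of a named gene in YH roots or in the differences to CD and to leaves. The fits without both replicate 1 arrays and with the block over the 12 root arrays were added after the data were seen. Causes of these shifts were not tested.

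Directions reversed only for named genes with log2 fold changes near 0 or resting on replicate 1. Without both replicate 1 arrays the value was -0.17 for PHT1-2, 0.078 for LOC100818176 and 0.060 for PAP. With array weights it was 0.044 for LOC100811455, -0.00073 for LOC100775275 and -0.11 for LOC100802020. Leaving out each array in turn gave -0.40 to 0.054 for BHLH320, -0.021 to 0.13 for LOC100775275, -0.058 to 0.19 for LOC100777191, -0.27 to 0.00039 for LOC100790114, -0.066 to 0.11 for LOC100791557, -0.14 to 0.52 for LOC100802020, -0.39 to 0.26 for LOC100803722, -0.065 to 0.053 for LOC100811455, -0.18 to 0.088 for LOC100818176, -0.15 to 0.029 for PAP and -0.022 to 0.22 for PAP4. Dim probe sets, near the lower quartile of the arrays, limit the size of fold change that can be read.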
